A study of Mus musculus with 8 samples.

Results

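Type I interferon response genes, the antiviral genes that cells switch on when interferon alpha or beta reaches them, were followed in male C57BL/6 mice, in brown adipose tissue, which burns fat for heat. The group held 32 genes chosen by symbol as known members of the response, and all 32 were measured among the 21759 genes of the array. For a gene with several transcript clusters, the brightest stood for it. The tissue was compared between 4 arrays labelled NCD and 4 labelled HFD, a high-fat diet according to the series title. The labels do not spell out NCD, name no other treatment or genetic change in either group, and do not give age or length of feeding. Nothing in them says that the arrays came from separate animals, so p-values measure the spread between these samples, which may be technical.

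Cells meet foreign nucleic acid through sensors in the cytosol and in endosomes, which lead to the release of type I interferon. Interferon binds the receptor of Ifnar1 and Ifnar2, and kinases there activate transcription factors, Stat2 among them, which join Irf9 and bind a promoter element called the interferon-stimulated response element (ISRE). The genes so induced block viral entry, RNA translation and replication, and several of them feed back on the sensors and on the receptor. Fat cells and the macrophages of fat tissue both carry the receptor.

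None of the 32 genes passed the test for a diet difference, and those with the smallest p were all higher in HFD. In limma, 0 genes rose and 0 fell at an adjusted p of 0.05, where 0.142% of all genes passed (0.00919% higher and 0.133% lower in HFD). At an unadjusted p under 0.05 the counts were 8 higher and 0 lower, beside 2.73% and 4.52% of all genes. The 8 were Sp100, Isg15, Ifitm3, Xaf1, Ifih1, Ifit3, Parp14 and Oasl2. Means were higher in HFD for 22 of the 32 and lower for 10, against 46.7% and 52.5% of all genes. The median log2 difference, HFD minus NCD, was 0.13 (range -0.18 to 0.545), and the median over all genes was -0.01. The groups did not overlap for 2 of the 32, Ifitm3 and Xaf1, both higher in HFD (1.33% of all genes), and 0 were separated in the lower direction (2.5% of all genes). The smallest adjusted p of any member was 0.412, for Sp100.

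The differences in array value were bounded for some of the genes. None of the 32 reached 1.5-fold (0.585 on the log2 scale). For 23 of them the whole 95% interval of the difference lay within 1.5-fold in either direction. For the others the interval reached further, up to 0.90 on the log2 scale for Sp100. Some of the 23 had values near background, such as Mx1 at a mean of 3.46. For such genes a narrow interval of array values does not bound the change in RNA. The moderated standard errors ran from 0.104 to 0.197 on the log2 scale. The median standard deviation within groups was 0.21 for the members and 0.18 for all genes.

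**Figure D1:**
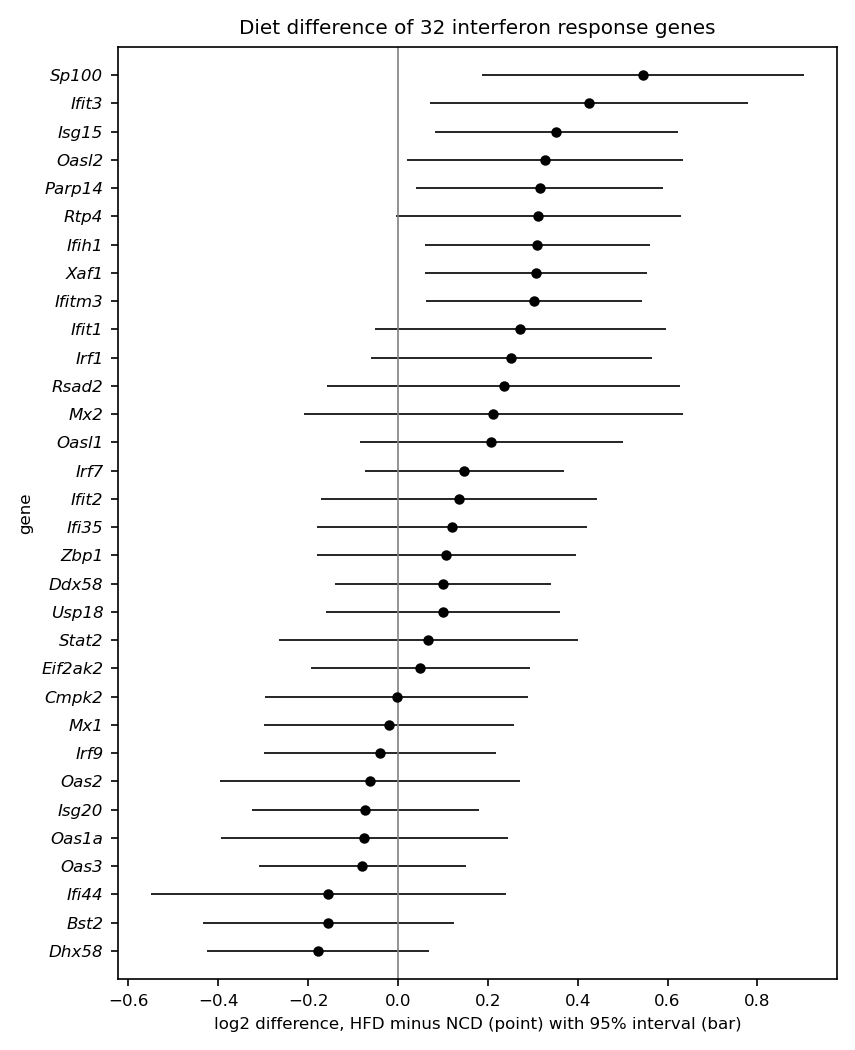
The horizontal axis gives the log2 difference HFD minus NCD (point) with its 95% interval (bar) for each of the 32 genes, 4 arrays a group. Sp100 lies highest at 0.545 and Dhx58 lowest at -0.18, and the intervals of 8 genes lie wholly above 0.

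By the mean over the 32 genes, the high arrays were the 4 of HFD and NCD 3. The mean log2 level over the 32 genes was 6.06 on NCD 1, 6.11 on NCD 2, 6.29 on NCD 3 and 6.10 on NCD 4. It was 6.24 on HFD 1, 6.24 on HFD 2, 6.30 on HFD 3 and 6.33 on HFD 4. NCD 3 thus lay above HFD 1 and HFD 2, while the other NCD arrays lay below every HFD array. HFD 4 carried the highest value of 9 of the 32 genes (28.1%, against 9.23% of all genes). NCD 3 carried the highest of 8 (25%, against 22.6% of all genes) and HFD 3 of 5 (15.6%, against 7.57%). HFD 1 and HFD 2 carried the highest of 3 each (9.38%, against 11.7% and 11.3%), so by this count they did not stand out. NCD 4 also carried 3 (against 13.8% of all genes), NCD 1 carried 0 (against 11.2%) and NCD 2 carried 1 (against 12.6%). The lowest value fell on NCD 1 for 9 genes (28.1%, against 11.9% of all genes), on NCD 4 for 8 (25%, against 11%) and on NCD 2 for 6 (18.8%, against 13.2%). Among the NCD arrays alone, NCD 3 was the highest for 21 of the 32 genes, and for 32% of all genes.

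**Figure D2:**
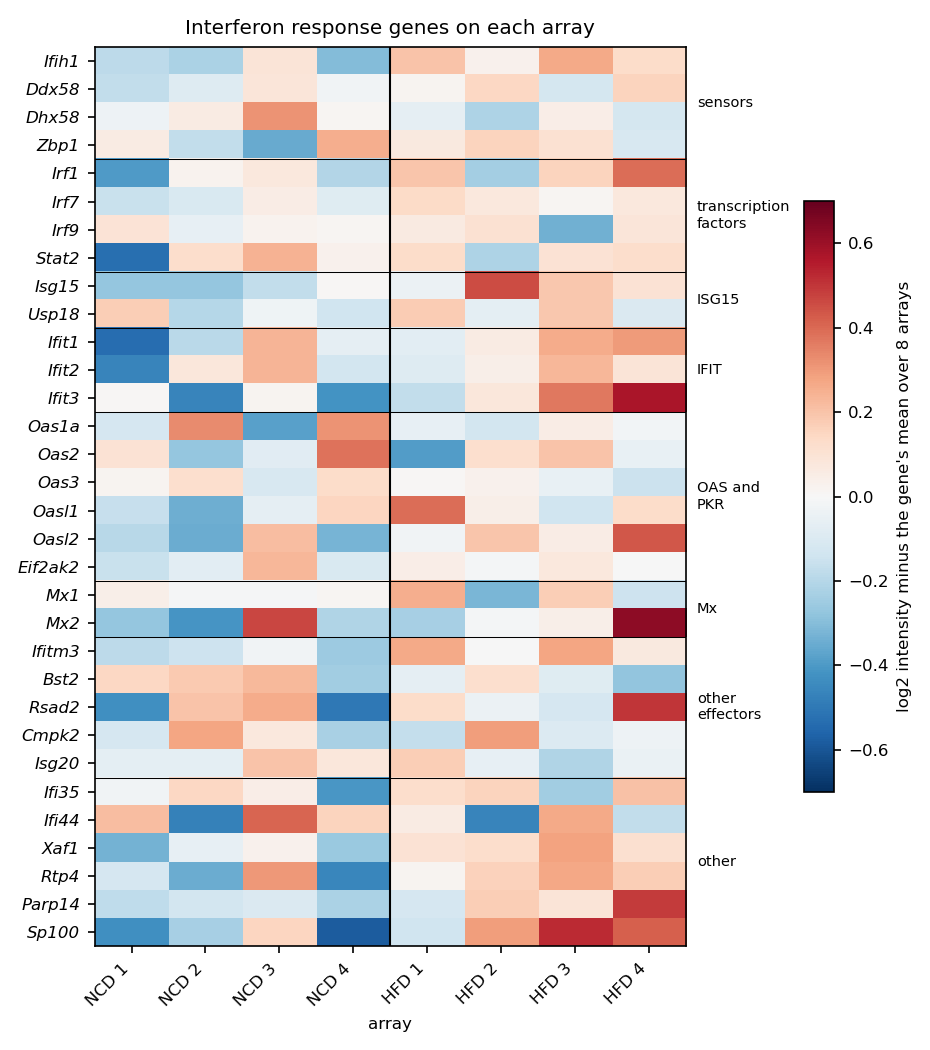
Each row is a gene, ordered by role, and each column an array; colour gives the log2 intensity minus the gene's mean over 8 arrays. Columns NCD 1, NCD 2 and NCD 4 are mostly blue, while NCD 3 and the HFD columns hold most of the red cells.

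The counts of members depended on single arrays. The count at an unadjusted p under 0.05 with HFD higher, 8 on all arrays, was 4 without NCD 4 (3.36% of all genes), 4 without HFD 3 (2.69%) and 5 without HFD 4 (2.43%). Without NCD 3, the NCD array with the highest member mean, 11 of the 32 had an unadjusted p under 0.05 in the higher direction (3.02% of all genes) and 9 were separated with HFD higher (3.07% of all genes). Leaving out an array makes non-overlap easier for every gene. NCD 3 had the highest member mean in NCD, so leaving it out, alone or with NCD 2, by itself widens the member differences. The shares of all genes do not correct for that. The 9 were Ifih1, Irf7, Oasl2, Eif2ak2, Ifitm3, Xaf1, Rtp4, Parp14 and Sp100. The adjusted test still called 0. NCD 3 had the widest spread of values over clusters of any array (SD 1.82, against 1.69 to 1.79 on the others) and the lowest estimated array weight (0.524). With NCD 2 (SD 1.79) left out as well, 11 members had an unadjusted p under 0.05 with HFD higher (3.28% of all genes). In that direction 11 were separated (7.3%), and the median difference was 0.235. HFD 4 was nearly as wide (SD 1.78) but was kept in that setting, and the count without HFD 4 alone was 5.

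A second pair of arrays stood apart in another way. Skeletal muscle markers had a mean log2 level of 9.23 on NCD 1 and 9.93 on HFD 3, and of 5.37 to 5.91 on the other arrays. Without NCD 1 and HFD 3 the member median was 0.13, with 20 of 32 means higher. Unadjusted p was then under 0.05 for 2 genes, both higher (3.36% of all genes), and 4 genes were separated with HFD higher (5.59%): Irf7, Irf9, Ifitm3 and Xaf1. Brown adipocyte markers had lower means in HFD for 12 of 15 genes, 1 of them called, Elovl3, a fatty acid elongase, which fell by 1.385 on the log2 scale (limma adjusted p = 0.00673). Their list mean ran from 9.21 to 9.48 in NCD and from 9.11 to 9.26 in HFD, and the part of this in the interferon gene differences was not tested. Of the 15 markers, 13 lay above 6.46, the 95th percentile of 1119 olfactory receptor genes, which serve here as a stand-in for unexpressed genes. By the same measure 13 of the 32 interferon response genes lay above it in their mean over all arrays, and 19 lay below, where values near background limit what a difference can show. The median difference was 0.30 for the 13 (10 means higher, 6 at an unadjusted p under 0.05 with HFD higher) and 0.11 for the 19 (12 and 2). Over all genes above and below that level it was -0.055 and 0.01, with 2.57% and 2.81% at that p.

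Promoter letters are shown for the members whose RefSeq promoter holds an ISRE-like run upstream of the start. The array values were not used in the search. The genes were chosen as known members of a response that runs through this element, so an excess of it follows from that choice. The search covered 250 bases before to 50 bases after each start (GRCm38.p6), and 24 of the 32 genes had such a window. ISRE-like letters were GAAANNGAAA or, on the reverse strand, TTTCNNTTTC; matches may overlap each other. They occurred in 12 of the 24 genes (50.0%), against 3.99% of 27025 genes with a window. In 8 of the 12 a match lay wholly before the start, and those stretches follow, 5′ to 3′ on the gene's strand, with the matched letters in capitals.
Isg15 (chr4:156200850-156200909, minus strand): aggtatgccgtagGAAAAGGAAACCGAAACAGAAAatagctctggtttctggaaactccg
Ifit3 (chr19:34583382-34583441, plus strand): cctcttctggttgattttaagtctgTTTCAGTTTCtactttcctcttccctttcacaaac
Ifit1 (chr19:34640779-34640838, plus strand): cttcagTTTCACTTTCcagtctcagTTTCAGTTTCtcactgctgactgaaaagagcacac
Rsad2 (chr12:26456538-26456597, minus strand): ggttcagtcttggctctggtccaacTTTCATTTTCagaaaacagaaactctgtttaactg
Bst2 (chr8:71537562-71537621, minus strand): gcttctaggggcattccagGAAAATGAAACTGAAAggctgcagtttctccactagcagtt
Oas3 (chr5:120777700-120777759, minus strand): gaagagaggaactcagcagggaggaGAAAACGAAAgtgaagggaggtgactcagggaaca
Oas1a (chr5:120907526-120907564, minus strand): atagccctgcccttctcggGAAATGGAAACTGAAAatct
Stat2 (chr10:128270251-128270310, plus strand): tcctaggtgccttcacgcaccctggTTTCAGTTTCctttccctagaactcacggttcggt

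The stretch of Isg15 holds 3 overlapping matches. The same letters stood before genes with higher means in HFD (Isg15, Ifit3, Ifit1, Rsad2, Stat2) and before genes with lower means (Bst2, Oas3, Oas1a). For Isg15 the array cluster is annotated to chromosome 17 and the promoter shown lies on chromosome 4, so its array value may not belong to this promoter. Over the 12 genes with ISRE-like letters the median difference was 0.17 (range -0.155 to 0.425, 9 of 12 higher; 0.10 over the 11 without Isg15), and over the 12 genes with a window but no match it was 0.14 (range -0.155 to 0.545, 8 of 12 higher). The members without a match included Sp100, Xaf1 and Oasl2, which were among the 8 with an unadjusted p under 0.05. GAS-like letters, TTCNNNGAA, the palindrome bound by STAT dimers, occurred in 8 of the 24 genes (33.3%), against 9.55% of all genes with a window, and 4 genes held both motifs. Irf1, a factor known for such a site, is shown as the example.
Irf1 (chr11:53769899-53769957, plus strand): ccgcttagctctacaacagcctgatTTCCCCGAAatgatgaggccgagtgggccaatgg

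Among the sensors, Ifih1 had the smallest p. Ifih1 encodes MDA5, which binds long double-stranded RNA in the cytosol. Its log2 levels were 6.95, 6.91, 7.22 and 6.83 on NCD 1 to 4 and 7.33, 7.16, 7.40 and 7.26 on HFD 1 to 4. HFD arrays lay above NCD arrays except that NCD 3 exceeded HFD 2. The difference was 0.31 ± 0.12 (SE, adjusted p = 0.568), with an unadjusted p of 0.0184. Ddx58, which encodes the RNA sensor RIG-I, ranged from 6.99 to 7.25 in NCD and from 7.04 to 7.32 in HFD (difference 0.10). Dhx58, which encodes LGP2, a regulator of those sensors, had the most negative difference of the 32 at -0.18 (adjusted p = 0.812), with arrays of the groups overlapping. Zbp1, a sensor of nucleic acids in the Z conformation, differed by 0.11.

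None of the transcription factors of the pathway passed the test. All 4 lay below 6.46 in their mean over all arrays. Irf7, which drives interferon alpha genes, had levels of 4.85, 4.90, 5.06 and 4.92 in NCD and of 5.14, 5.08, 5.02 and 5.08 in HFD. HFD lay above NCD but for NCD 3, which exceeded HFD 3, and the difference was 0.15 ± 0.10 (SE, adjusted p = 0.825). Irf1, a factor shared with the interferon gamma response, ranged from 6.01 to 6.48 in NCD and from 6.17 to 6.80 in HFD (difference 0.25, adjusted p = 0.773). A second, dimmer Irf1 cluster differed by 0.21 ± 0.12 (SE). Stat2, a subunit of the complex that binds the ISRE, had a mean of 6.225 in NCD and 6.29 in HFD, and its lowest value, 5.73, fell on NCD 1. Irf9, the subunit that recognises the ISRE, had a mean of 6.465 in NCD and 6.425 in HFD.

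The ISG15 system tags proteins with a ubiquitin-like modifier and removes it again. Isg15, the modifier, had levels of 5.16, 5.16, 5.26 and 5.44 in NCD and of 5.39, 5.89, 5.62 and 5.53 in HFD. HFD 2 was the highest, and the groups overlapped only through NCD 4, which exceeded HFD 1. The difference was 0.35 ± 0.13 (SE, adjusted p = 0.5398). The cluster that the table names Isg15 spans 613 bases on chromosome 17, from 46543911 to 46544523 of a build that neither labels nor headers name. The RefSeq gene lies on chromosome 4, so which transcript this cluster reads is uncertain. It was the only one of the 32 whose chromosome differed from that of the RefSeq gene. Usp18, the protease that removes ISG15 and damps receptor signalling, ranged from 5.64 to 6.01 in NCD and from 5.74 to 6.03 in HFD (difference 0.10). Isg15 and Usp18 both lay below 6.46 in their mean over all arrays.

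The IFIT proteins bind viral RNA and hinder its translation, and their genes lie side by side on chromosome 19. Ifit3 had levels of 5.93, 5.46, 5.94 and 5.50 in NCD and of 5.75, 6.00, 6.29 and 6.49 in HFD. HFD 2, HFD 3 and HFD 4 lay above every NCD array, whereas HFD 1 lay inside the NCD range. The difference was 0.425 ± 0.17 (SE, adjusted p = 0.589). Ifit1 ranged from 5.14 on NCD 1 to 5.91 on NCD 3 and from 5.60 to 5.97 in HFD (difference 0.27, adjusted p = 0.761). Ifit2 differed by 0.135, and its highest value, 6.15, fell on NCD 3. All 3 IFIT genes lay below 6.46 in their mean over all arrays. These genes have close relatives in tandem, and reads of related transcripts by the same probes were not tested.

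**Figure D3:**
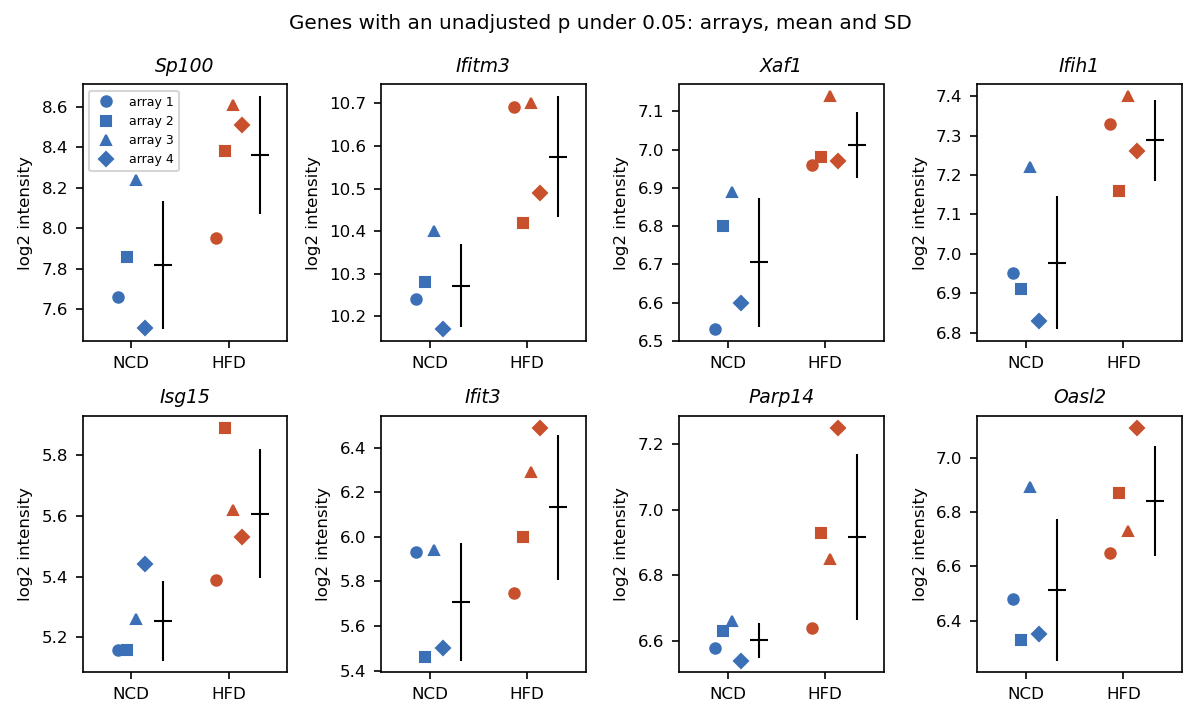
Each panel shows one gene with an unadjusted p under 0.05: log2 intensity per array (symbols 1 to 4 mark the replicate numbers), with the group mean and SD as a bar to the right. Ifitm3 and Xaf1 show no overlap, while NCD 3 (blue triangle) reaches the HFD range for Sp100, Ifih1, Ifit3, Parp14 and Oasl2.

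The OAS enzymes make oligoadenylates when double-stranded RNA binds them, and so switch on an RNA-degrading enzyme. Eif2ak2 encodes PKR, a kinase that halts translation on the same trigger. The 5 OAS and OAS-like genes lie on chromosome 5. Oasl2 had levels of 6.48, 6.33, 6.89 and 6.35 in NCD and of 6.65, 6.87, 6.73 and 7.11 in HFD. NCD 3 was the one NCD array inside the HFD range, and the difference was 0.33 ± 0.14 (SE, adjusted p = 0.665). Oasl1, which represses Irf7 translation, differed by 0.21 (adjusted p = 0.814). Oas1a, Oas2 and Oas3 had differences of -0.075, -0.06 and -0.08, and the values of Oas1a and Oas2 turned positive when 1 array was left out (up to 0.023 and 0.0575). Among further OAS genes, counted with the other induced genes, Oas1b differed by 0.27, Oas1g by 0.175 and Oas1c by -0.0575, so the enzymes did not share a direction. Eif2ak2 ranged from 7.13 to 7.52 in NCD and from 7.27 to 7.36 in HFD (difference 0.05).

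Mx proteins are GTPases that trap viral nucleocapsids, and C57BL/6 mice are known to carry a nonfunctional Mx1 allele. Mx1 levels were 3.50, 3.45, 3.45 and 3.47 in NCD and 3.71, 3.14, 3.63 and 3.31 in HFD. NCD arrays were nearly equal and HFD arrays lay on both sides of them (difference -0.02, adjusted p = 0.988). Mx2 had levels of 4.04, 3.90, 4.78 and 4.10 in NCD and of 4.08, 4.30, 4.35 and 4.94 in HFD. NCD 3 and HFD 4 were high and the other 6 arrays low, and the difference was 0.21 ± 0.20 (SE, adjusted p = 0.868). All values of both genes lay below 6.46.

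Effectors at membranes and in nucleotide metabolism did not share a direction. Ifitm3, which hinders fusion of incoming viruses, had levels of 10.24, 10.28, 10.40 and 10.17 in NCD and of 10.69, 10.42, 10.70 and 10.49 in HFD. Every HFD array exceeded every NCD array, with 0.02 between NCD 3 and HFD 2. The difference was 0.30 ± 0.11 (SE, adjusted p = 0.559), a 1.23-fold higher level. Bst2, which encodes tetherin, a protein that holds budding virions at the surface, differed by -0.155, and HFD 4 and NCD 4 were its lowest arrays. Rsad2, which encodes viperin, had levels of 6.39, 7.02, 7.08 and 6.32 in NCD and of 6.95, 6.78, 6.70 and 7.32 in HFD. NCD 1 and NCD 4 were low and all other arrays high (difference 0.235, adjusted p = 0.845). Cmpk2, a nucleotide kinase gene next to Rsad2 on chromosome 12, had a mean of 5.39 in each group and a difference of -0.0025. Isg20, an RNA exonuclease, differed by -0.07.

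The remaining genes held the largest difference. Sp100, a protein of PML nuclear bodies, had levels of 7.66, 7.86, 8.24 and 7.51 in NCD and of 7.95, 8.38, 8.61 and 8.51 in HFD. HFD 2, HFD 3 and HFD 4 exceeded all NCD arrays, and HFD 1 lay between NCD 2 and NCD 3. The difference was 0.545 ± 0.17 (SE, 95% interval 0.19 to 0.90), a 1.46-fold higher level, with an unadjusted p of 0.00559. The chosen cluster spans chromosome 1 from 87546589 to 87606023 in the file. A second, dimmer Sp100 cluster differed by 0.19 ± 0.13 (SE), so the clusters disagreed in size.

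Xaf1, a gene linked to cell death, had levels of 6.53, 6.80, 6.89 and 6.60 in NCD and of 6.96, 6.98, 7.14 and 6.97 in HFD. Every HFD array exceeded every NCD array, and the difference was 0.31 ± 0.12 (SE, adjusted p = 0.566). Parp14, an ADP-ribosyltransferase, had levels of 6.58, 6.63, 6.66 and 6.54 in NCD and of 6.64, 6.93, 6.85 and 7.25 in HFD. HFD 4 was high and HFD 1 lay within the NCD range, with a difference of 0.315 ± 0.13 (SE, adjusted p = 0.623). Rtp4 had levels of 6.90, 6.67, 7.32 and 6.56 in NCD and of 7.04, 7.18, 7.29 and 7.19 in HFD. Its highest value fell on NCD 3 and the other NCD arrays lay below all of HFD (difference 0.31, adjusted p = 0.699). Ifi35 differed by 0.12 and Ifi44 by -0.155.

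Upstream of these genes, interferon itself and its receptor showed no called change. Of 18 measured interferon ligand genes, 0 rose and 0 fell, with a median difference of 0.03. Of the 18, 5 lay above 6.46 in their mean over all arrays. Ifnb1, interferon beta, ranged from 3.18 to 3.67 in NCD and from 3.36 to 3.57 in HFD (difference 0.0075, 95% interval -0.26 to 0.27). All its values lay below 6.46, so this interval does not bound the change in its RNA. Among the ligands Ifnab, Ifna9 and Ifne had the smallest p, with differences of -0.35 (unadjusted p = 0.0487), -0.22 and 0.19. Of 17 receptor and JAK-STAT genes 0 rose and 0 fell (median -0.015). Ifnar1 differed by 0.20 ± 0.12 (SE) and Ifnar2 by -0.125 ± 0.12 (SE).

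Single genes of sensing and response had smaller p than these. Ifngr1, the ligand-binding chain of the interferon gamma receptor, had levels of 9.01, 9.03, 9.08 and 8.80 in NCD and of 9.16, 9.26, 9.25 and 9.71 in HFD. The groups did not overlap, and the difference was 0.365 ± 0.13 (SE, adjusted p = 0.547). Ptpn2, a phosphatase that acts on JAKs and STATs, differed by -0.34 (adjusted p = 0.615). Tlr3, the endosomal receptor for double-stranded RNA, had levels of 6.72, 6.61, 6.52 and 6.52 in NCD and of 7.01, 6.94, 7.03 and 6.86 in HFD. Here NCD 3 was not high and the groups did not overlap, with a difference of 0.37 ± 0.11 (SE, adjusted p = 0.338). Tlr9 and Trim25 followed with 0.26 and 0.205. In all, 0 of the 20 adaptor, receptor and kinase genes of nucleic acid sensing passed (median -0.00125).

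Of 51 other interferon-induced genes, 0 rose and 0 fell, and the median difference was 0.075, with 32 higher and 19 lower means. Unadjusted p was under 0.05 for 9 of them with HFD higher and for 2 with HFD lower, beside 2.73% and 4.52% of all genes. Trim30a, a member of the TRIM family, had levels of 6.63, 7.00, 7.32 and 7.08 in NCD and of 7.36, 7.30, 7.72 and 7.53 in HFD. NCD 3 exceeded HFD 2 by 0.02, and the difference was 0.47 ± 0.15 (SE, adjusted p = 0.416). Ifi205 and Pyhin1, of one family of nuclear DNA-binding proteins, differed by 0.55 (adjusted p = 0.473) and -0.46 (adjusted p = 0.546). Of 14 guanylate-binding protein and related genes, which answer more to interferon gamma, 0 passed (median 0.04): Gbp9 differed by 0.39 (adjusted p = 0.679), Cxcl9, a chemokine, by -0.30 (adjusted p = 0.677) and Gbp2 by -0.225.

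**Figure D4:**
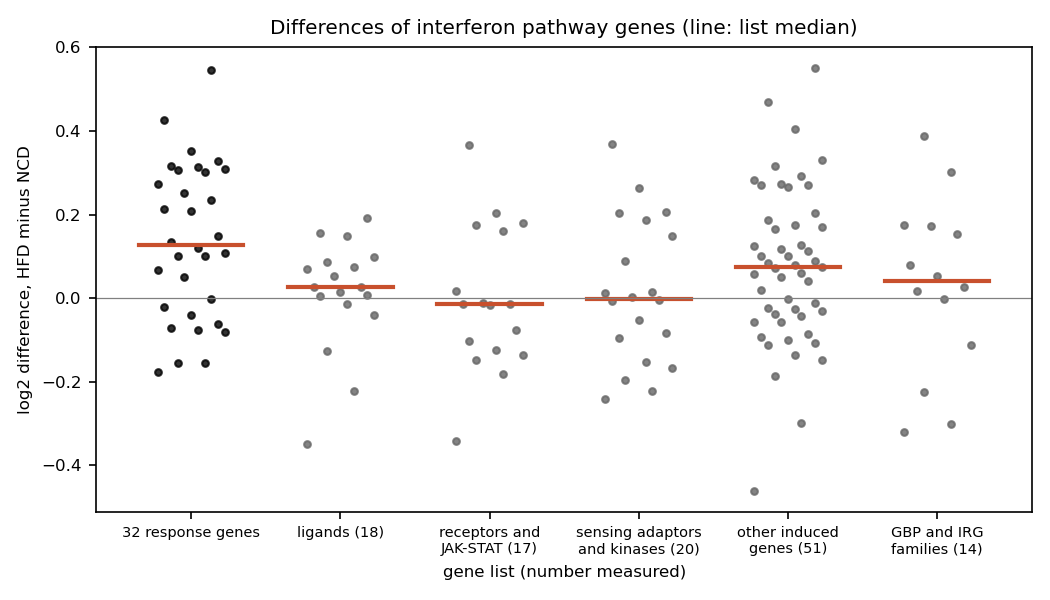
Points are genes, the vertical axis gives the log2 difference HFD minus NCD, and the line marks each list's median. The medians are 0.13 for the 32 response genes, 0.075 for the other induced genes, 0.03 for ligands, -0.015 for receptors and JAK-STAT, -0.00125 for sensing adaptors and 0.04 for the GBP and related families.

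Markers of other cells were high on some of the same arrays. In whole tissue, fewer cells of a type and less RNA per cell cannot be told apart. The mean of 10 macrophage markers was 6.55 to 6.60 on NCD 1, NCD 2 and NCD 4 and 7.01 on NCD 3. It was 6.91 on HFD 1, 6.61 on HFD 2, 7.06 on HFD 3 and 6.92 on HFD 4. Macrophage markers were thus high on NCD 3, as the interferon response genes were, and low on HFD 2, where the member mean was 0.03 above its mean over 8 arrays. Means of 8 of the 10 were higher in HFD, 0 passed, and 6 lay above 6.46. Cd68 differed by 0.37 ± 0.13 (SE, adjusted p = 0.547).

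For plasmacytoid dendritic cells, which release much type I interferon, list means ran from 6.10 to 6.32 in NCD and from 6.24 to 6.47 in HFD. The highest array of each group was NCD 1 and HFD 3, where the marker Cox6a2, which muscle also expresses, stood at 7.91 and 8.38 (6.41 to 6.87 elsewhere). Without Cox6a2 the means ran from 6.03 to 6.24 in NCD and from 6.19 to 6.25 in HFD. Means of 7 of the 8 markers were higher in HFD and 0 passed. Siglech, the defining marker, stood at 5.60 and 5.67, below 6.46. Endothelial markers had list means of 8.07, 8.18, 8.25 and 8.07 on NCD 1 to 4 and of 8.12, 8.25, 8.21 and 8.43 on HFD 1 to 4. NCD 3 was the highest NCD array and HFD 4 the highest of all, as for the interferon response genes. Of the 7 markers 6 had higher means in HFD, 0 passed, and all 7 lay above 6.46. All 7 neutrophil markers had higher means in HFD, with 0 past and 0 above 6.46. Other lists did not share this direction. Means were higher in HFD for 4 of 8 T cell, 2 of 7 NK cell, 3 of 7 B cell and 2 of 6 red blood cell markers, and 0 passed. Of T cell markers 1 of 8 lay above 6.46, of NK and B cell markers 0 of 7 each, and of red blood cell markers 2 of 6. The part of any of these cells in the interferon gene differences was not tested.

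**Figure D5:**
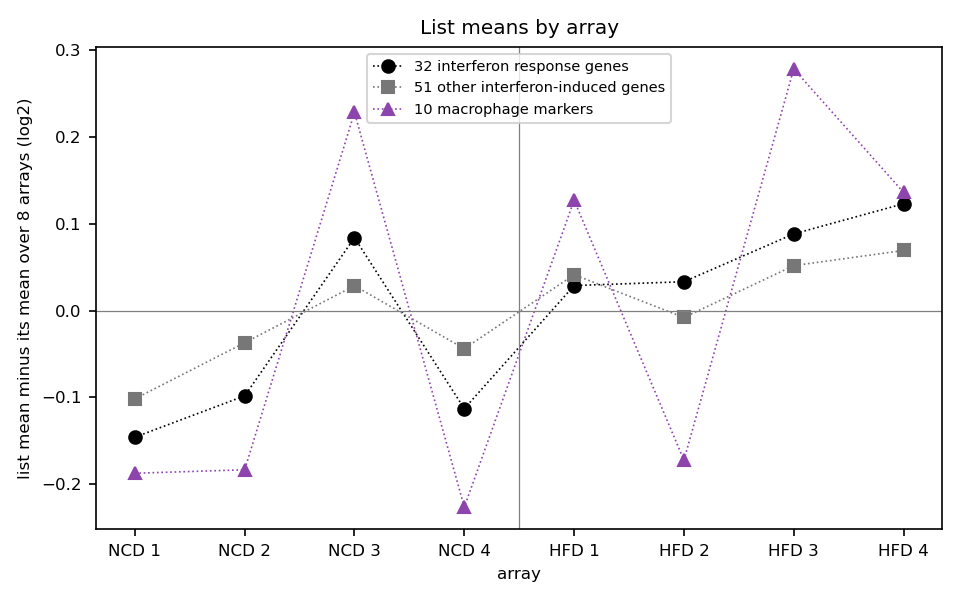
The vertical axis gives, for each array, a list's mean log2 level minus its mean over all 8 arrays, for the 32 genes, the 51 other induced genes and the 10 macrophage markers (dotted lines only guide the eye). The 32 genes stand at -0.15, -0.10, 0.08 and -0.11 on NCD 1 to 4 and at 0.03, 0.03, 0.09 and 0.12 on HFD 1 to 4.

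In the authors' deposited table, 6 of the 32 genes had a diet p-value of at most 0.05, all with a positive fold score, beside 6.35% of all genes at that p and 2.39% at that p with a positive score. They were Ifih1, Irf7, Isg15, Ifitm3, Xaf1 and Sp100. The same authors' deposited table gives Sp100 a fold of 1.46 and a p of 0.04.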

How the data were processed

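Brown adipose RNA was measured on 8 whole-transcript mouse arrays of Affymetrix, 4 labelled NCD and 4 HFD. The authors took logs of the intensities and applied quantile normalization with Affymetrix Power Tools, per the labels' design text, and deposited log2 values with 2 decimals. The deposited table also holds the authors' p-value and a signed fold score for diet. Neither labels nor headers state the summarization, background correction or genome build. The brightest of 25254 clusters per symbol gave 21759 genes, tested with lmFit and eBayes of limma 3.58.1 under R 4.3.3, two-sided and adjusted by Benjamini-Hochberg over all genes. Errors are moderated standard errors, and the number of arrays limits the precision. The fit was tested on simulated data. Members and lists were chosen with earlier results of these data known. Named genes were all members, the 3 smallest p of each pathway list with Ifnar1, Ifnar2 and Ifnb1, and the 8 genes outside these lists most correlated with the member mean. Other names are marker genes, and the result of 1 gene is not reported here. Same-numbered arrays did not deviate together (correlations of deviations -0.17 to 0.0025), and the main fit did not pair them. Arrays of unlike number were not compared, so this cannot exclude a pairing. Promoters are RefSeq, GRCm38.p6. Alternatives covered cluster choice, dim genes, scaling, variance model, weights, a replicate block and arrays left out.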

Additional observations from a re-analysis of the deposited data

Results flagged for a closer look

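Of 76 sets of 4 arrays examined (each member and list mean in each group), 4 held an array far from the other 3; chance flags about 1 in 20 sets. Irf9 stood at 6.11 on HFD 3 and at 6.51 to 6.55 on the other HFD arrays. Stat2 stood at 6.04 on HFD 2 and at 6.36 to 6.39 on the others. Bst2 stood at 6.44 on NCD 4 and at 6.83 to 6.91 on the other NCD arrays. Xaf1 stood at 7.14 on HFD 3 and at 6.96 to 6.98 on the others.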

How the results depend on the processing

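Under all 18 alternatives, the adjusted test called 0 of the 32 genes and 0 of the 5 pathway lists' genes in either direction, the smallest adjusted p of a member being 0.1675. The methods' t-test called 0 of all genes after adjustment and gave 6 members an unadjusted p under 0.05. With the replicate block 0 members were called and 10 had an unadjusted p under 0.05, so the block changed no member's call. The share of all genes at that p was not computed for the t-test or the block. Neither count can therefore be read as a result about the members. Leaving out 1 array at a time gave 4 to 11 members at that p, 21 to 24 higher means, 2 to 9 separated members with HFD higher, 0 to 1 lower, and a median of 0.11 to 0.17. The count at that p was 4 without NCD 4 or HFD 3, 5 without HFD 4 and 11 without NCD 3. Separated members numbered 9 without NCD 3 (3.07% of all genes), 6 without HFD 1 (2.2%), 4 without HFD 2 (2.26%) and 4 after cyclic loess (2.56%), against 2 (1.33%) on all arrays. Without NCD 1 and HFD 3 the counts were 2 and 4 higher, with 1 separated lower. Without NCD 2 and NCD 3 they were 11 and 11, and the median was 0.235. With dim genes left out, 13 members remained, 10 with higher means, and their median was 0.30. Calls over all genes numbered 31, but 55 without dim genes, 70 with a variance trend, 0 by the methods' t-test, 3 without NCD 2 and NCD 3, and 21 to 38 with 1 array left out. Causes were not tested.

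Of the 32 members, 23 kept their sign throughout (18 higher, 5 lower). Single arrays left out moved Cmpk2 between -0.10 and 0.088, Irf9 between -0.082 and 0.065, Stat2 between -0.0975 and 0.16, Oas1a between -0.21 and 0.023, Oas2 between -0.16 and 0.0575, Mx1 between -0.11 and 0.0825 and Ifnb1 between -0.0925 and 0.071. Without NCD 2 and NCD 3, Zbp1 was -0.10, Cmpk2 0.17, Ifne -0.0175 and Ifnb1 -0.15. Without NCD 1 and HFD 3, Irf9 was 0.09, Stat2 -0.12, Ifit2 -0.05 and Eif2ak2 -0.01. With array weights, Cmpk2 was 0.012 and Ifnb1 -0.020. With cyclic loess Mx1 was 0.0068, and with equal median and spread Ifnb1 was -0.078.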

Other observations

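Outside the interferon lists, the 8 genes whose values over the 8 arrays ran closest to the mean of the 32 members were Cblb, Ablim3, Dock9, Xdh, Heg1, Dpep1, Slc43a3 and Slc12a2. They were taken by rank from 1206 genes with a standard deviation over the arrays of at least 0.3. The arrays share diet groups and spread, so the order is a description only. The member mean was higher in HFD and high on NCD 3. Higher values in HFD, a high NCD 3 and a larger difference without NCD 3 therefore follow from the choice of these genes. Their p-values are given as a description and test nothing about diet. Cblb, a ubiquitin ligase, had levels of 7.90, 7.98, 8.64 and 7.70 in NCD and of 8.36, 8.21, 8.50 and 8.65 in HFD. Xdh, xanthine dehydrogenase, had levels of 7.89, 8.41, 8.66 and 7.88 in NCD and of 8.60, 8.61, 8.91 and 9.08 in HFD. NCD 3 was the highest NCD array for both. Xdh differed by 0.59 ± 0.17 (SE, limma adjusted p = 0.362). Slc43a3, a purine base transporter, differed by 0.525 ± 0.14 (SE, limma adjusted p = 0.265), and Heg1, an endothelial membrane protein, by 0.44 ± 0.14 (SE, limma adjusted p = 0.412). Ablim3 differed by 0.45 over all arrays (limma adjusted p = 0.612) and by 0.67 without NCD 3 (limma adjusted p = 0.0473). It was the only one of the 8 past the threshold in any alternative. Given how the 8 were chosen, that call cannot be read as a result.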
